A study of Sus scrofa with 8 samples.

Results

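The genes described here are 10 pig genes of the ITAM signalling axis: the adaptors TYROBP, FCER1G and HCST, the Fc receptors FCGR3A and FCGR1A, the kinases LYN, SYK and BTK, the phospholipase PLCG2 and the phosphatase PTPN6. They were chosen by symbol, by a rule that holds no measured value but was written with earlier results of these data known, and are 10 of 17778 known genes in the expression table, which lists 18103 entries in all. All 10 were among the 13175 genes that reached the minimum level for testing, 0.3 FPKM in at least 4 libraries. Hepatic RNA was sequenced in 8 libraries, and each library was a pool of 2 male Landrace x Large White pigs. The 4 initial state libraries came from animals of 4 months before the dietary change, and their livers were sampled by laparotomy. The 4 steatosis libraries came from the same animals at 6 months, after 2 months on a steatotic diet poor in methionine and choline and enriched in cholesterol, cholate, fructose and saturated fat, and these livers were taken after euthanasia. Pigs were fasted overnight in both states. Diet, age and the way of sampling changed together, so their parts cannot be told apart. No source used here says which animals entered which pool, and p-values measure the spread between pools.

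An immunoreceptor tyrosine-based activation motif, or ITAM, is a short cytoplasmic stretch with a pair of tyrosines. Src family kinases such as LYN phosphorylate it when a receptor is cross-linked, SYK docks on the phosphorylated pair, and BTK and PLCG2 carry the signal to calcium release, while PTPN6 removes the phosphates. In the liver these proteins are best known from Kupffer cells and other myeloid cells, and from natural killer cells, which use them to respond to antibody-coated particles, lipids, dying cells and glycans.

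RNA levels were given as FPKM, fragments per kilobase of transcript scaled to the mapped fragments of the library, and are therefore per length. Log2 fold changes are steatosis against initial state on the log2(FPKM + 0.1) scale, which understates changes of low genes. A gene was called higher or lower at a limma adjusted p under 0.01 (Benjamini-Hochberg over all 13175 genes) and a log2 fold change beyond 1. By this rule 4 of the 10 genes rose in steatosis, namely TYROBP, FCER1G, FCGR3A and BTK, against 6.01% of all tested genes. None of the 10 fell, against 0.334% of all tested genes. By adjusted p alone, SYK and PTPN6 joined the higher genes, giving 6 of 10 against 12.9%. In 6 of the 10 genes the lowest steatosis library lay above the highest initial state library, which held for 29.6% of all tested genes. The median log2 fold change was 1.08 over the 10 genes and 0.25 over all tested genes. As each library is bulk tissue, more cells of a type and more RNA per cell cannot be told apart.

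**Figure D1:**
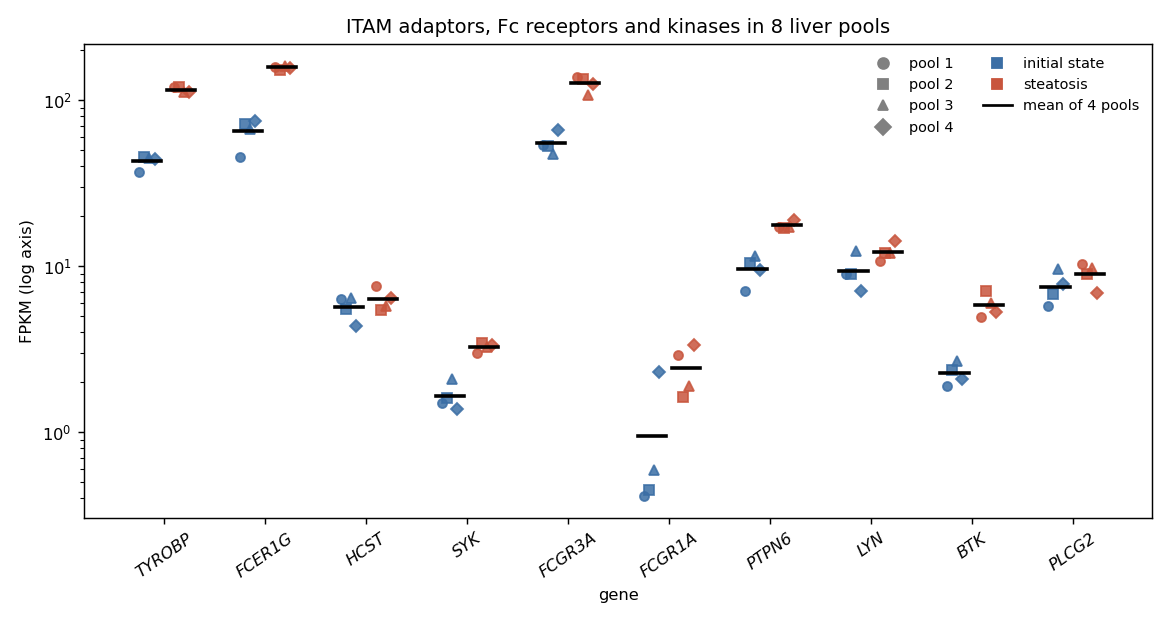
FPKM of the 10 genes in each library on a log axis, with points for the 4 initial state and the 4 steatosis pools and a bar at each group mean. The groups are apart for TYROBP, FCER1G, FCGR3A, SYK, BTK and PTPN6 and overlap for HCST, FCGR1A, LYN and PLCG2.

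Libraries were of similar depth: the FPKM worth of 1 fragment in genes of 400 to 600 bases gave 15632000 to 17007000 fragments for each, an estimate, as no fragment counts were used here. The median FPKM of tested genes was 3.89 to 4.89 in the initial state, lowest in pool 4, and 5.46 to 5.66 in steatosis. Summed markers of skeletal muscle and stomach were 3908, 11.97, 31.1 and 19.0 FPKM in initial state pools 1 to 4 and 0.2 to 0.64 FPKM in the steatosis pools, so that every initial state library was above every steatosis library. Without initial state pool 1 the same number of the 10 genes, 4, was called higher, with log2 fold changes of 1.37 for TYROBP, 1.14 for FCER1G, 1.19 for FCGR3A and 1.25 for BTK, while PTPN6 was at 0.75 and SYK at 0.93. Liver identity was clear in all libraries, with 7 hepatocyte markers summing to 61836 to 94573 FPKM in the initial state and 54913 to 65894 in steatosis. The part of the other differences between libraries in the results was not tested.

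Among the adaptors, TYROBP and FCER1G rose and HCST did not pass the test. TYROBP (DAP12; gene 397405, chromosome 6, 45309199 to 45312562 on Sscrofa11.1, as are all positions here) is the ITAM-bearing partner of TREM2 and of activating natural killer receptors. Its level was 36.72, 45.21, 45.06 and 44.04 FPKM in initial state pools 1 to 4, and 119.27, 120.08, 111.69 and 111.56 FPKM in steatosis pools 1 to 4. Every steatosis library stood far above every initial state library, and the pools of each state lay close together. The group means were 42.8 ± 4.06 and 115.65 ± 4.66 FPKM (SD, n = 4), or 1.44 as a log2 fold change (SE 0.09, 95% interval 1.23 to 1.64, limma adjusted p = 1.55e-05).

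FCER1G is the Fc receptor gamma chain, the ITAM adaptor that FCGR3A, FCGR1A and the IgE receptor share (gene 397406, chromosome 4, 89242467 to 89246344). It had the highest level of the 10 genes in both states, at 45.4, 72.26, 67.22 and 75.29 FPKM in the initial state and 158.93, 152.98, 161.73 and 156.47 FPKM in steatosis. Initial state pool 1 was the low library of its group, whereas the steatosis pools were nearly equal, and the groups were well apart. The coefficient of variation between pools was 20.8% in the initial state and 2.36% in steatosis. The group means were 65.04 ± 13.5 and 157.5 ± 3.72 FPKM (SD, n = 4), with a log2 fold change of 1.30 (SE 0.15, 95% interval 0.97 to 1.63, limma adjusted p = 0.000316). The lower bound of that interval lay just under the fold limit.

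HCST (DAP10; gene 397267, chromosome 6, 45304744 to 45309048) partners the natural killer receptor KLRK1 and carries a motif for phosphoinositide 3-kinase in place of an ITAM. It was measured at 6.31, 5.54, 6.39 and 4.37 FPKM in the initial state and 7.58, 5.46, 5.76 and 6.47 FPKM in steatosis, and the libraries of both states were interleaved. Its log2 fold change was 0.16 (SE 0.15, 95% interval -0.18 to 0.51, limma adjusted p = 0.451), and became -0.07 with libraries scaled to a common upper quartile and -0.11 with scaling by the median ratio between libraries. That interval does not hold the fold limit of 1. HCST and TYROBP are neighbours, with 150 bases between them. The ratio of TYROBP to HCST was 5.82 to 10.1 in the initial state and 15.7 to 22.0 in steatosis, a description of the same values. By contrast, the ratio of TYROBP to FCER1G was 0.672 ± 0.0974 and 0.735 ± 0.0416 (SD, n = 4), and its ranges overlapped.

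Of the Fc receptors, FCGR3A rose and FCGR1A depended on 1 library and on an assumed pairing. FCGR3A (CD16; gene 397684, chromosome 4, 88948357 to 88956513) is the low-affinity IgG receptor of natural killer cells and macrophages. Its transcript is also described as FCGR3B in the files, and reads may be shared with similar Fc receptor genes, so the level is uncertain to that extent. FCGR3A stood at 53.58, 53.18, 47.55 and 66.32 FPKM in the initial state and at 138.32, 133.45, 107.2 and 125.9 FPKM in steatosis. The groups did not overlap, although steatosis pool 3 lay below the other steatosis pools. On the log2 scale the change was 1.197 (SE 0.12, 95% interval 0.92 to 1.47, limma adjusted p = 0.000173). The call ended at the fold limit under upper quartile scaling (0.96) and median ratio scaling (0.92), where the limma adjusted p was 0.0022 and 0.00409. Relative to its gamma chain, FCGR3A was at a ratio of 0.876 ± 0.216 in the initial state and 0.803 ± 0.0983 in steatosis (SD, n = 4), with overlapping ranges.

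FCGR1A (CD64; gene 613130, chromosome 4, 99233632 to 99242531) is the high-affinity IgG receptor of monocytes and macrophages. It was the lowest of the 10 genes, at 0.41, 0.45, 0.59 and 2.32 FPKM in the initial state and 2.91, 1.63, 1.9 and 3.33 FPKM in steatosis. Initial state pool 4 stood apart from the other 3 initial state pools and above 2 of the steatosis pools. These levels correspond to an estimated 8, 9, 12 and 49 fragments and to 58, 34, 39 and 70 fragments, so counting error is large. The log2 fold change was 1.56 (SE 0.47, 95% interval 0.52 to 2.60), which missed the limit with a limma adjusted p of 0.0318. In the paired fit, with pools blocked by number, the limma adjusted p was 0.00956, past the limit. Without initial state pool 4 the log2 fold change was 2.08, also past the limit (limma adjusted p = 0.00118).

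Of the 3 kinases BTK rose, SYK missed the fold limit and LYN did not pass the test. LYN (gene 100152890, chromosome 4, 75793273 to 75903710), a Src family kinase that phosphorylates ITAMs and inhibitory motifs alike, was at 8.93, 8.96, 12.26 and 7.06 FPKM in the initial state and 10.8, 11.96, 11.94 and 14.19 FPKM in steatosis. Initial state pool 3 was as high as most steatosis pools, and the groups overlapped. Its log2 fold change of 0.41 (SE 0.16, 95% interval 0.05 to 0.77) had a limma adjusted p of 0.0831.

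SYK (gene 100125540, chromosome 14, 2103706 to 2160886) is the kinase that docks on phosphorylated ITAMs. It was measured at 1.49, 1.61, 2.09 and 1.38 FPKM in the initial state and 3.02, 3.44, 3.24 and 3.37 FPKM in steatosis, without overlap and with little spread in steatosis. The log2 fold change of 0.97 (SE 0.15, 95% interval 0.64 to 1.29) passed on its limma adjusted p of 0.00142 but lay just under the fold limit. SYK moved past that limit without initial state pool 3 and, barely, without steatosis pool 1, at a limma adjusted p of 0.000988 and 0.00448.

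BTK (gene 100627308, chromosome X, 82981512 to 83014475), the Tec family kinase that activates PLCG2, rose. Its level was 1.91, 2.38, 2.67 and 2.09 FPKM in the initial state and 4.93, 7.08, 6.01 and 5.3 FPKM in steatosis. All steatosis pools were above all initial state pools, with pool 2 the highest in steatosis. Means were 2.26 ± 0.334 and 5.83 ± 0.946 FPKM (SD, n = 4), and the log2 fold change was 1.33 (SE 0.15, 95% interval 0.98 to 1.67, limma adjusted p = 0.000334). BTK stood at 1.28 to 1.51 times the SYK level in the initial state and 1.57 to 2.06 times in steatosis, ranges that did not overlap.

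**Figure D2:**
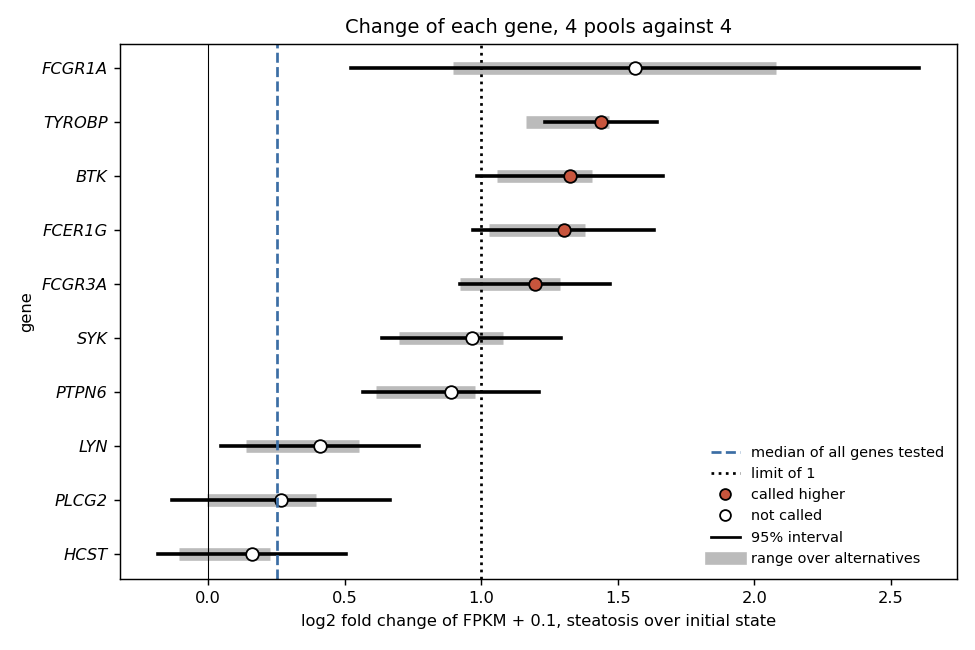
Log2 fold change of each of the 10 genes (steatosis against initial state, FPKM + 0.1) as a point with its 95% interval from limma over a grey bar for the range over alternative settings, beside lines at 0, at the median of all tested genes (0.25) and at the fold limit of 1. TYROBP, FCER1G, FCGR3A and BTK are called, SYK and PTPN6 lie just under the limit, and FCGR1A has the widest interval.

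Below the kinases, the effector did not pass the test, and without scaling between libraries the phosphatase missed only the fold limit. PLCG2 (gene 100518663, chromosome 6, 6433146 to 6603092), the phospholipase that produces the calcium-releasing second messenger in myeloid and B cells, was at 5.75, 6.78, 9.65 and 7.84 FPKM in the initial state and 10.36, 8.92, 9.78 and 6.92 FPKM in steatosis. The states were interleaved, and steatosis pool 4 was lower than 2 of the initial state pools. The log2 fold change was 0.27 (SE 0.18, 95% interval -0.13 to 0.67, limma adjusted p = 0.28) and -0.0029 under median ratio scaling. BTK, its activating kinase, stood at 0.267 to 0.351 of the PLCG2 level in the initial state and 0.476 to 0.794 in steatosis.

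PTPN6 (SHP-1; gene 100171389, chromosome 5, 63762109 to 63779086) is the phosphatase that inhibitory receptors recruit to end the signal. It was at 7.04, 10.51, 11.45 and 9.53 FPKM in the initial state and 17.17, 17.09, 17.33 and 19.02 FPKM in steatosis, so that the groups were apart. Initial state pool 1 was the low library here, as for TYROBP and FCER1G. The log2 fold change was 0.89 (SE 0.14, 95% interval 0.57 to 1.21) with a limma adjusted p of 0.00198, under the fold limit. With upper quartile scaling it was 0.66 (limma adjusted p = 0.00974). Median ratio scaling gave 0.62 with a limma adjusted p of 0.0141, which met neither limit. The ratio of SYK to PTPN6, kinase to phosphatase, had means of 0.173 and 0.185, and its ranges overlapped.

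The order of the levels was the same in both states: FCER1G, FCGR3A, TYROBP, PTPN6, LYN, PLCG2, HCST, BTK, SYK and FCGR1A. In the initial state FCER1G and FCGR3A overlapped, TYROBP lay below FCGR3A in every library, and overlap held for each neighbouring pair from PTPN6 down to HCST. BTK did not reach the HCST level there, and overlapped SYK, which in turn overlapped FCGR1A. In steatosis FCER1G lay above FCGR3A without overlap, PTPN6, LYN and PLCG2 formed separate steps, and FCGR3A and TYROBP overlapped. PLCG2 overlapped HCST and HCST overlapped BTK in steatosis, BTK stayed above SYK, and SYK overlapped FCGR1A.

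The levels were next set against a pair of reference genes of the leukocytes themselves. PTPRC (CD45), carried by all nucleated blood-derived cells, was at 7.23, 9.91, 12.21 and 8.71 FPKM in the initial state and 11.73, 15.0, 14.44 and 13.49 FPKM in steatosis. Its log2 fold change was 0.54 (limma adjusted p = 0.0305), not called, and 1 initial state pool overlapped steatosis. CSF1R, the receptor for the macrophage growth factor, was at 17.41, 18.67, 19.86 and 17.51 FPKM and at 26.1, 27.44, 27.11 and 32.55 FPKM, a log2 fold change of 0.62 under the fold limit (limma adjusted p = 0.0018).

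Per PTPRC, 5 of the 10 genes had every steatosis library above every initial state library, against 4.69% of all tested genes. These were TYROBP, with a mean ratio of 4.60 in the initial state and 8.54 in steatosis, FCER1G (6.93 and 11.6), SYK (0.175 and 0.24), PTPN6 (1.02 and 1.30) and BTK (0.241 and 0.425). Per CSF1R, again 5 of 10 were above without overlap, against 4.9% of all tested genes. Here FCGR3A took the place of SYK, with mean ratios of 3.03 and 4.50. The largest change per CSF1R was that of TYROBP, from 2.33 to 4.12, a fold of 1.77 between the means. HCST, LYN, PLCG2 and FCGR1A overlapped between the states for both reference genes. None of the 10 was below without overlap for either reference gene, and the share of all tested genes below was not computed.

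**Figure D3:**
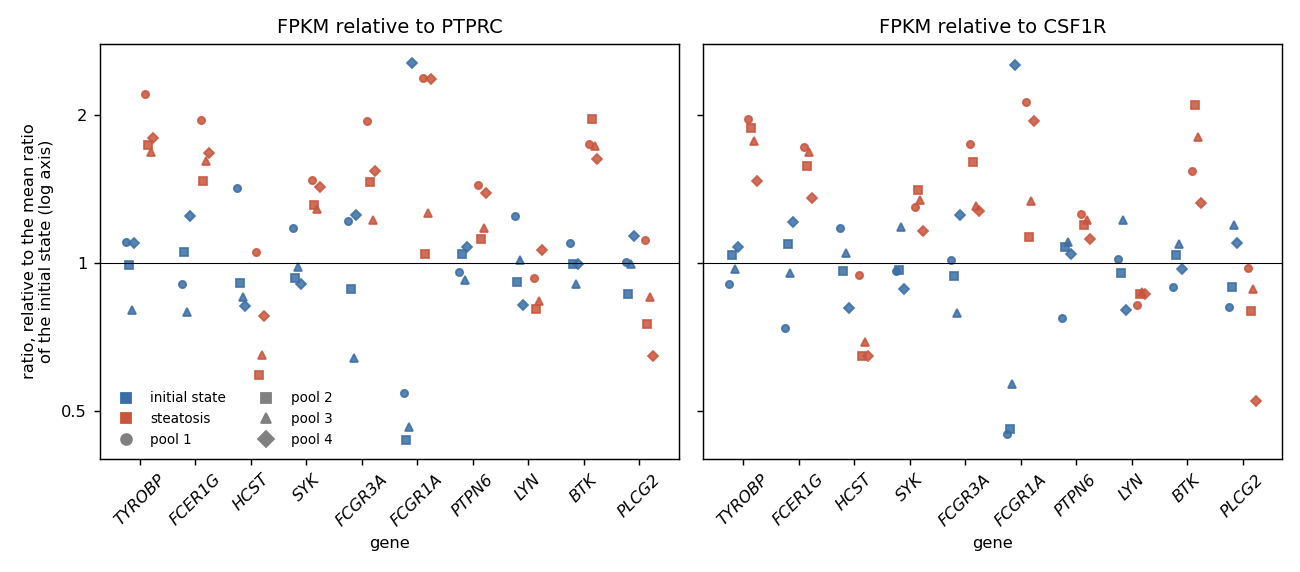
Level of each of the 10 genes divided by PTPRC and by CSF1R in the same library, shown relative to the mean ratio of the initial state on a log axis, with points for the 4 pools of each state. TYROBP, FCER1G, BTK and PTPN6 are higher in every steatosis pool for both denominators, SYK for PTPRC alone and FCGR3A for CSF1R alone.

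Deviations from the group means were compared between the 10 genes across the 8 libraries, as a description, since all genes share the library, its depth and its cell composition. Over the 45 pairs of genes the median Pearson's r was 0.21, with a range of -0.73 to 0.92. TYROBP, FCER1G and PTPN6 deviated together, at 0.86 for TYROBP and FCER1G, 0.82 for FCER1G and PTPN6 and 0.81 for TYROBP and PTPN6. Initial state pool 1 was the lowest of its group for each of them, at 36.72, 45.4 and 7.04 FPKM. These r values may rest largely on that library, and r without it was not computed. SYK deviated with LYN (0.92) and with BTK (0.72). FCGR3A went with FCGR1A (0.67) and against LYN (-0.73) and SYK (-0.66), and the highest r of HCST was 0.50, with LYN. Initial state pool 3 was the highest of its group for SYK, LYN and BTK and the lowest for FCGR3A. Initial state pool 4 was the lowest for SYK, LYN and HCST and the highest for FCGR3A and FCGR1A. The r values of these genes may rest largely on those libraries as well, and r without them was not computed.

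**Figure D4:**
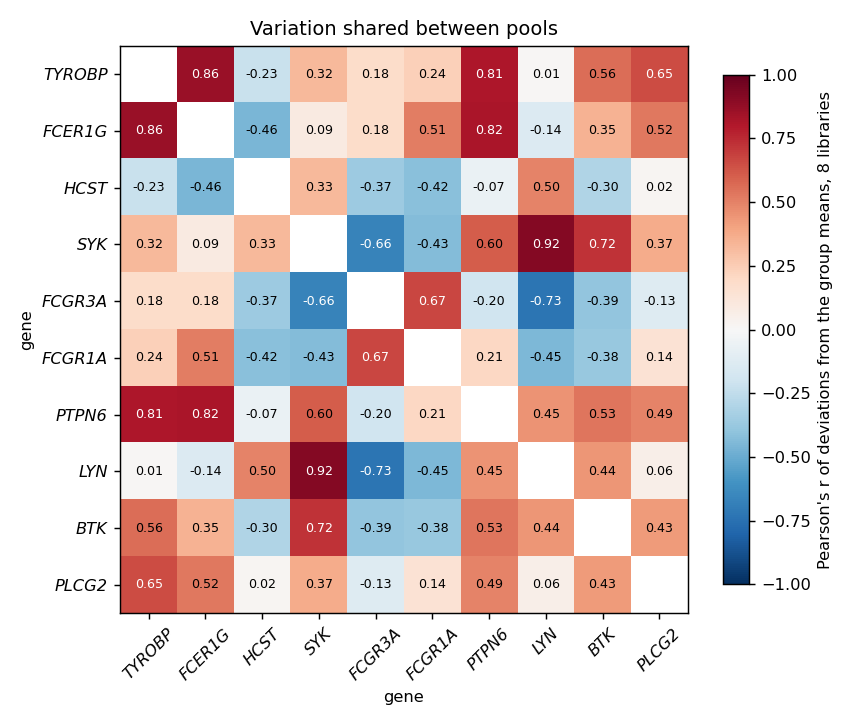
Pearson's r of the deviations of log2(FPKM + 0.1) from the group means for each pair of the 10 genes, over 8 libraries, coloured from blue (negative) to red (positive). The highest value is 0.92 for SYK and LYN and the lowest is -0.73 for FCGR3A and LYN.

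The 5 genes whose pattern over the 8 libraries was most like that of TYROBP were LAT2, DNASE1L1, CHURC1, RAMP2 and NKG7, with Pearson's r of 0.997, 0.997, 0.996, 0.995 and 0.995. With the group means removed, r was 0.83, 0.78, 0.80, 0.74 and 0.89. As the genes were picked by r over the same 8 libraries, these values are a description and no separate check. LAT2, a membrane adaptor phosphorylated by SYK, went from 8.61 ± 0.953 to 27.1 ± 1.05 FPKM (SD, n = 4), a change of 1.65 on the log2 scale (limma adjusted p = 1.17e-05). NKG7, a granule protein of cytotoxic lymphocytes, had a log2 fold change of 1.36, and DNASE1L1 one of 1.30, all called higher. CHURC1 (0.54) and RAMP2 (0.89) lay under the fold limit.

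The wider pathway was covered by 7 lists holding 128 genes, of which 108 were found by symbol and 92 reached the minimum level. Of these 92, 23 were called higher (25%, against 6.01% of all tested genes) and none lower, and the median log2 fold change was 0.58. By adjusted p alone 41 were higher, against 12.9% of all tested genes. With upper quartile or median ratio scaling 11 of 93 were called higher, against 3.35% and 3.11% of all tested genes, and with a pseudocount of 1 the count was 8 of 92, against 2.998%. Without steatosis pool 2 it was 14 of 88, against 4.48% of all tested genes. Without steatosis pool 4 it was 15 of 88, against 4.43%. In each of these, 4 of the 23 (TREM2, CLEC7A, OSCAR and CD200R1L) no longer reached the minimum level, and 7 and 5 of the 23 were tested but not called. Of the 23, 6 (CD200R1L, CLEC4E, CLEC7A, MILR1, OSCAR and TREM2) had an initial state library under 0.3 FPKM. None of these reached the minimum level without steatosis libraries, so the share among tested genes is a description. CLEC4E and MILR1 each had 1 initial state library above 0.3 FPKM, at 0.34 and 0.35 FPKM.

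**Figure D5:**
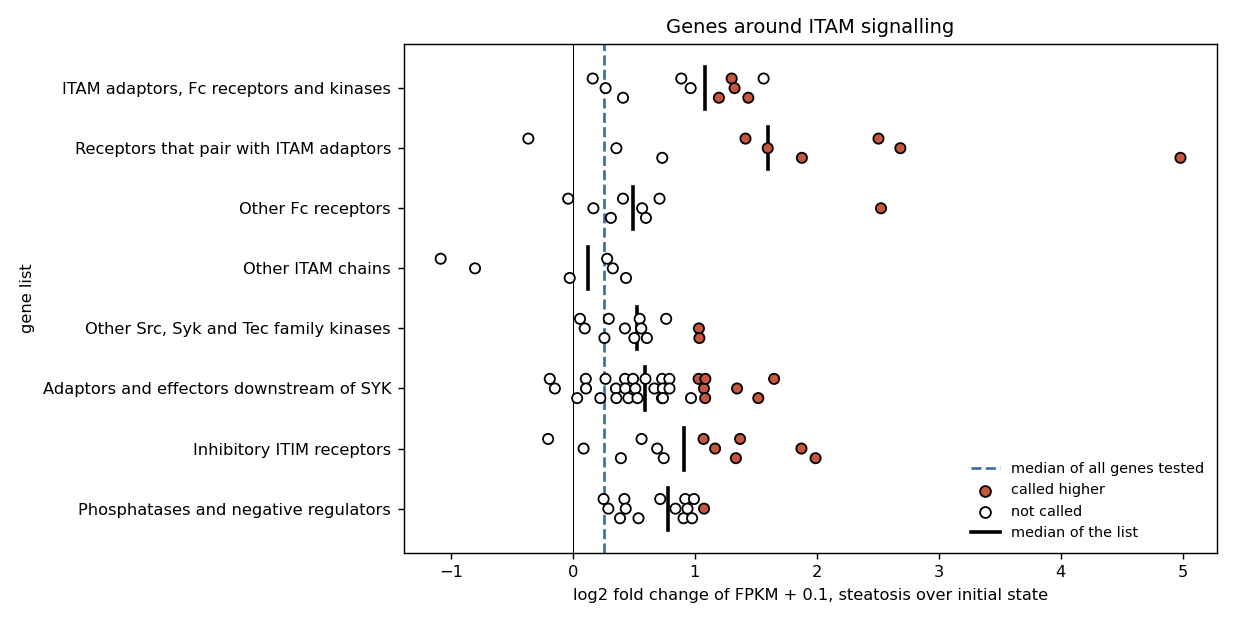
Log2 fold change (steatosis against initial state, FPKM + 0.1) of the 10 genes (top) and of every tested gene of the 7 pathway lists, 1 point a gene, with filled points for genes called and a bar at each list's median. The 23 genes called lie in 6 of the 7 lists. Of the 6 called receptors that pair with ITAM adaptors, 5 did not reach the minimum level without steatosis libraries.

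Of the receptors that couple to ITAM adaptors or to SYK, 14 were found and 9 reached the minimum level, and 6 of these were called higher. Without steatosis libraries, TREM2, CLEC7A, CLEC4E, OSCAR and CD200R1L did not reach that level. Their place among the tested genes thus depended on their being higher in steatosis, and the 6 of 9 is no measure of the list. With no minimum level, 7 of the 14 were called higher, against 4.23% of all genes. TREM2, the lipid and apolipoprotein receptor that signals through TYROBP, was at 0.12, 0.29, 0 and 0 FPKM in the initial state and 5.28, 5.71, 6.54 and 4.01 FPKM in steatosis. The TREM2 transcript was thus near the detection limit before the diet and well above it in every steatosis pool. Its log2 fold change was 4.98, or 2.53 with a pseudocount of 1. CLEC7A (dectin-1), the beta-glucan receptor, rose from 0.23 to 2.02 FPKM (2.68 on the log2 scale), and SIGLEC14, a sialic acid receptor, had a log2 fold change of 1.60, or 0.93 with a pseudocount of 1. KLRK1 (NKG2D), the receptor that HCST serves, was at 4.63 ± 1.33 and 5.82 ± 1.23 FPKM (SD, n = 4) and was not called, with a log2 fold change of 0.36 and a limma adjusted p of 0.271.

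Among the other chains and Fc receptors 1 gene was called higher and none lower. Over all tested genes these shares were 6.01% and 0.334%. None of 6 other ITAM chains was called, and the most abundant, CD247 (the T cell receptor zeta chain), was at 11.35 and 15.3 FPKM with a log2 fold change of 0.43 (limma adjusted p = 0.133). The B cell receptor chains CD79A and CD79B had log2 fold changes of -1.08 and -0.80 (limma adjusted p = 0.0331 and 0.0666). Of 8 other Fc receptors tested 1 was called higher, PIGR, which is not an ITAM receptor but carries IgA across epithelia, at 3.67 ± 0.951 and 21.5 ± 4.69 FPKM (SD, n = 4; log2 fold change 2.53). FCGRT, the neonatal Fc receptor that recycles IgG and albumin, was at 105.5 and 159.9 FPKM with a log2 fold change of 0.60, under the fold limit (limma adjusted p = 0.000718). The median log2 fold change was 0.13 for the chains and 0.49 for the other Fc receptors.

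Of 12 other Src, Syk and Tec family kinases, 2 were called higher, against 6.01% of all tested genes. These were SRC, from 1.94 to 4.03 FPKM (log2 fold change 1.03), and FGR, a myeloid Src family kinase, from 4.13 to 8.46 FPKM (1.04). CSK, which holds Src kinases inactive, was at 12.4 and 17.4 FPKM (0.50, limma adjusted p = 0.0273). Downstream of SYK, 7 of 31 tested adaptors and effectors were called higher, against the same 6.01%. Besides LAT2 these included HCLS1, a LYN substrate that binds actin, from 5.20 to 11.2 FPKM, and VAV1, a signalling protein of blood cells, from 2.84 to 6.19 FPKM. GRB2, the most abundant one not called, was at 33.1 and 44.5 FPKM (log2 fold change 0.43).

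On the inhibitory side, 6 of 12 tested inhibitory receptors were called higher, against 6.01% of all tested genes. Without steatosis libraries MILR1, 1 of the 6, did not reach the minimum level, so the 6 of 12 is no measure of the list. With no minimum level, 6 of 17 were called higher, against 4.23% of all genes. SIRPA, the receptor for CD47, went from 7.80 to 17.5 FPKM (log2 fold change 1.17), CD300LF from 1.03 to 4.18 FPKM (1.99) and CD200R1, the receptor for CD200, from 0.695 to 2.84 FPKM (1.87). CEACAM1 was at 28.0 and 24.2 FPKM (-0.20, limma adjusted p = 0.296). Of 14 phosphatases and other negative regulators 1 was called higher, a share near the 6.01% of all tested genes. This was UBASH3B, which dephosphorylates SYK, from 1.30 to 2.87 FPKM (1.07), while INPPL1 was at 12.4 and 16 FPKM (0.39). The log2 fold changes of SRC, FGR, HCLS1, VAV1, SIRPA and UBASH3B were 0.77 to 0.93, under the fold limit, with upper quartile or median ratio scaling.

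Markers of the cells that carry these genes were counted in the same libraries, where 6.01% of all tested genes were called higher. Of 12 macrophage markers 2 were called higher, SPI1 and MARCO, and their sum over the list was 1023 to 1225 FPKM in the initial state and 1375 to 1595 in steatosis. Of 11 T and natural killer cell markers 2 were called higher, NKG7 and CD4, with sums of 51.0 to 84.8 and 96.8 to 113 FPKM. Neither of these sums overlapped between the states, and they moved in the same direction as TYROBP, FCER1G, FCGR3A and BTK.

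Of 7 tested neutrophil and mast cell markers 1 was called higher, CSF3R, against 6.01% of all tested genes. The sums of that list overlapped, at 7.14 to 11.7 and 11.5 to 15.7 FPKM. B cell markers went the other way, with MS4A1 lower among 4 tested, against 0.334% of all tested genes. Their sums were 17.7 to 46.9 and 11.7 to 16.1 FPKM. None of 7 hepatocyte markers, nor the 1 tested marker of skeletal muscle and stomach, was called. No marker of these lists was at 0 in all 8 libraries. The part of cell composition in the 10 genes' levels was not tested.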

How the data were processed

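Total RNA was sequenced as 100-base paired reads on a DNA nanoball platform of BGI after poly-A selection. Per the submitters' processing notes, HISAT2 2.0.4, Bowtie2 2.2.5 and RSEM 1.2.12 were used, with Sscrofa11.1 as reference, and the FPKM values were deposited by the authors with no stated scaling between libraries. Of the authors' 4 tables comparing single pools, with fold changes, p-values and false discovery rates, only the gene length was used. Positions are from RefSeq, Sscrofa11.1, matched by gene ID.

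The 10 genes and all lists were chosen with earlier results of these data known. The test was limma 3.58.1 (R 4.3.3, moderated with a mean-variance trend) of steatosis against initial state, on log2(FPKM + 0.1) and with no covariate. It took in 13175 genes, those reaching 0.3 FPKM in 4 or more libraries, and p-values were adjusted over all of them by the Benjamini-Hochberg method. The limits on the adjusted p (0.01) and on the log2 fold change (1) follow the study. The script was first tested on simulated data. A test on read counts was planned for the case that files held counts, which does not apply to FPKM, and planned searches for motifs in proteins and promoters were not made, as no sequences were used here. Ratios, ranges and figures were made in Python 3.11.15 (pandas 2.3.3, numpy 2.4.6, scipy 1.17.1, matplotlib 3.10.9).

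The pools carry the same numbers in both states. Deviations from the group means correlated between pools of the same number, at 0.16, 0.35, 0.32 and 0.25 over 13175 genes. Pools of different numbers were not compared in this way, so these values cannot show that the numbers pair the libraries. The pairing by number was therefore an assumption, as the sources used here do not name the animals of a pool. A replicate block for these numbers was tried as an alternative. Others were scaling to a common sum, upper quartile or median ratio, no filter or a filter at 1 FPKM, a pseudocount of 1, no trend, limma's treat, an adjusted p under 0.05, and leaving out each library. Named pathway genes are, for each list, the 3 called higher with the lowest adjusted p and the most abundant one not called. Beyond this rule, CD200R1L, CLEC4E, MILR1 and OSCAR were named for their low initial values, CD79A and CD79B for being the lowest of the ITAM chains, and SPI1, MARCO, CD4, CSF3R and MS4A1 as the called markers, after their values were seen.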

Additional observations from a re-analysis of the deposited data

Results flagged for a closer look

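In 3 of the 20 groups of 4 pools (10 genes in 2 states), 1 pool lay farther from the other pools than Dixon's limit allows, which chance gives in about 1 of 20 groups. These were TYROBP in initial state pool 1 (36.72 FPKM, the lowest of its group), FCGR1A in initial state pool 4 (2.32 FPKM, the highest of its group) and PTPN6 in steatosis pool 4 (19.02 FPKM, the highest of its group).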

How the results depend on the processing

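The count of 4 of the 10 genes called higher was 3 with upper quartile scaling and 3 with median ratio scaling, where FCGR3A lost its call. It was 4 to 5 with any 1 library left out. By adjusted p alone it was 6, or 5 when median ratio scaling was added. With limma's treat against a log2 fold change of 1 it was 0, and TYROBP had the lowest adjusted p of the 10 (0.0428). Among pathway genes called higher (23), the count was 11 with upper quartile scaling, 11 with median ratio scaling, 8 with a pseudocount of 1, 4 with treat, 41 by adjusted p alone and 14 to 24 with 1 library left out, and 1 was called lower with an adjusted p under 0.05. Over all tested genes, 792 were called higher and 44 lower, against 439 and 74 with upper quartile scaling, 408 and 84 with median ratio scaling, 395 higher with a pseudocount of 1, and 68 and 1 with treat. With an adjusted p under 0.05, 76 were lower, and by adjusted p alone 1696 were higher and 98 lower, against 744 and 384 when median ratio scaling was added (22 pathway genes higher). Leaving out 1 library gave 573 to 788 higher and 26 to 51 lower. The median log2 fold change of all genes was 0.03 with upper quartile and -0.01 with median ratio scaling, and that of the 10 genes was 0.85 and 0.81. HCST reversed to -0.069 and -0.11 under these, and PLCG2 to -0.0029 under the latter. With the replicate block, FCGR1A was called (adjusted p = 0.00956), 5 of the 10 genes and 22 pathway genes were higher, and no other of the 10 changed its call. The settings using the adjusted p alone were chosen after seeing the data. Depth limits FCGR1A most, with 8 estimated fragments in its lowest library.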
